A study of Mus musculus with 4 samples.

Results

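NRF2 is a transcription factor that cells use against oxidants and electrophiles, and the NRF2 pathway genes described here are the factor, its inhibitor and 8 of its target genes. The members were named by symbol (Nfe2l2, Keap1, Hmox1, Nqo1, Gclc, Gclm, Srxn1, Slc7a11, Gsr and Gsta4). The rule that names them uses no measured value, although earlier results of these data were known when they were chosen. Their probes were found through the transcript that each array probe targets. All 10 were found on the array, by 11 of its 56605 probes, and all 11 probes were well above background on each of the 4 arrays. Only 32994 of the 56605 probes could be named in this way, so other probes of the members could have been missed. The 10 genes stand among 16793 genes that were tested. Messenger RNA of the dorsal hippocampus of female mice was measured after a battery of behavioural tests, on 1-colour Agilent arrays with Cy3 label. The 20-fold iodine group, from mice given 20 times an iodine intake that the labels do not state, had 2 arrays (replicates 2 and 3), and the control group had 2 arrays (replicates 2 and 3). Strain, age, and the route and length of the iodine intake were not given in the sources used here. Nothing in the labels says that replicates were separate animals, so the p-values cover the spread among these 4 samples alone, and that spread could be technical.

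NRF2 is held in the cytosol by KEAP1, which passes it to a CUL3 ubiquitin ligase for destruction. Oxidants and electrophiles modify cysteines of KEAP1, and NRF2 then gathers in the nucleus, pairs with small MAF proteins and binds antioxidant response elements of its target genes. The targets make and recycle glutathione, break down heme, reduce quinones and repair peroxiredoxins. In brain the pathway is known to be most active in astrocytes, and NRF2 activity is largely set at the level of the protein, which arrays of messenger RNA do not measure.

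The element that NRF2 binds holds the core TGACNNNGC, and the promoters in which it was found are shown so that the letters can be seen beside the genes. Promoter windows of 300 bases, 250 before and 50 after the start site (RefSeq, build GRCm38.p6), were given for 6 of the 10 genes. The core was searched on both strands and was in 3 of these 6, against 12.4% of all 32851 windows of that length. A second spelling, TGANTCAGC, was added after the windows had been read, and it contains the AP-1 motif TGANTCA. It was in 1 of the 6 windows, against 1.19% of all, while TGANTCA alone was in 7.81% of all. Capitals mark both spellings. A match is a description of letters, not of binding. Nfe2l2 lies on chr2:75704614-75704913 (minus strand), Gclm on chr3:122245307-122245606 (plus strand) and Srxn1 on chr2:152105274-152105573 (plus strand).
Nfe2l2: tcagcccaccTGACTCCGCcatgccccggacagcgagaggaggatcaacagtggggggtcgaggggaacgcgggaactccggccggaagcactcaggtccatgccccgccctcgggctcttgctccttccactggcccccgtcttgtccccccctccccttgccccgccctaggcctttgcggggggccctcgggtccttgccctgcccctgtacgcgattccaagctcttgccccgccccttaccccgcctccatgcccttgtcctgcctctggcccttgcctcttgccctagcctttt
Gclm: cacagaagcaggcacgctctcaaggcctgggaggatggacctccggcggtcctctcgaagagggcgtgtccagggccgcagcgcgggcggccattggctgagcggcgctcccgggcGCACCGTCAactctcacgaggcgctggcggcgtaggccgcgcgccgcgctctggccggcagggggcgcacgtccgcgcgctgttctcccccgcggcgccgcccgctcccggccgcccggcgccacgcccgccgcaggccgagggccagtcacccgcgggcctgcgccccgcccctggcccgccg
Srxn1: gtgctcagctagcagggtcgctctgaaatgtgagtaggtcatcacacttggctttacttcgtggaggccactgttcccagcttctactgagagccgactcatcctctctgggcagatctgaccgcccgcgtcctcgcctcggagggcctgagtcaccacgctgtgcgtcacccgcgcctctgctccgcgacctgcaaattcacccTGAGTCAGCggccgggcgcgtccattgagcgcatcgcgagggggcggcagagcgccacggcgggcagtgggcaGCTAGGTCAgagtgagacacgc
In Nfe2l2 the core begins at base -240 from the start site. In Gclm it begins at base -134, on the opposite strand. Srxn1 has the core on the opposite strand at base 28 and TGANTCAGC at base -45. The windows of Keap1, Nqo1 and Slc7a11 held neither spelling. Bases outside the windows were not searched, so an element farther from the start site would not be seen.

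No NRF2 pathway gene differed between the 20-fold iodine and control groups past the threshold. By limma, 0 of 10 members had an adjusted p under 0.05, as did 0 of all 16793 genes (0%), and the members' adjusted p ran from 0.724 for Nfe2l2 to 0.956 for Keap1. At an unadjusted p under 0.05 there were again 0 of 10 members, against 1239 genes or 7.38% of all. Log2 differences of 20-fold iodine minus control ran from -0.35 for Nfe2l2 to 0.13 for Slc7a11. The difference was above 0 in 3 members, against 45.7% of all genes, and below 0 in 7, against 54.3% of all. The members' median was -0.06, beside -0.01 over all genes, and their median absolute difference was 0.07, beside 0.09 over all genes. Both arrays of one group lay beyond both of the other in 4 of 10 members (40%), against 39.9% of all genes. All 4 had 20-fold iodine lower (Nfe2l2, Gclc, Gclm and Gsr), against 21.9% of all genes. With 20-fold iodine higher there were 0 members, against 17.9% of all. In the other 6 members the groups overlapped.

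**Figure D1:**
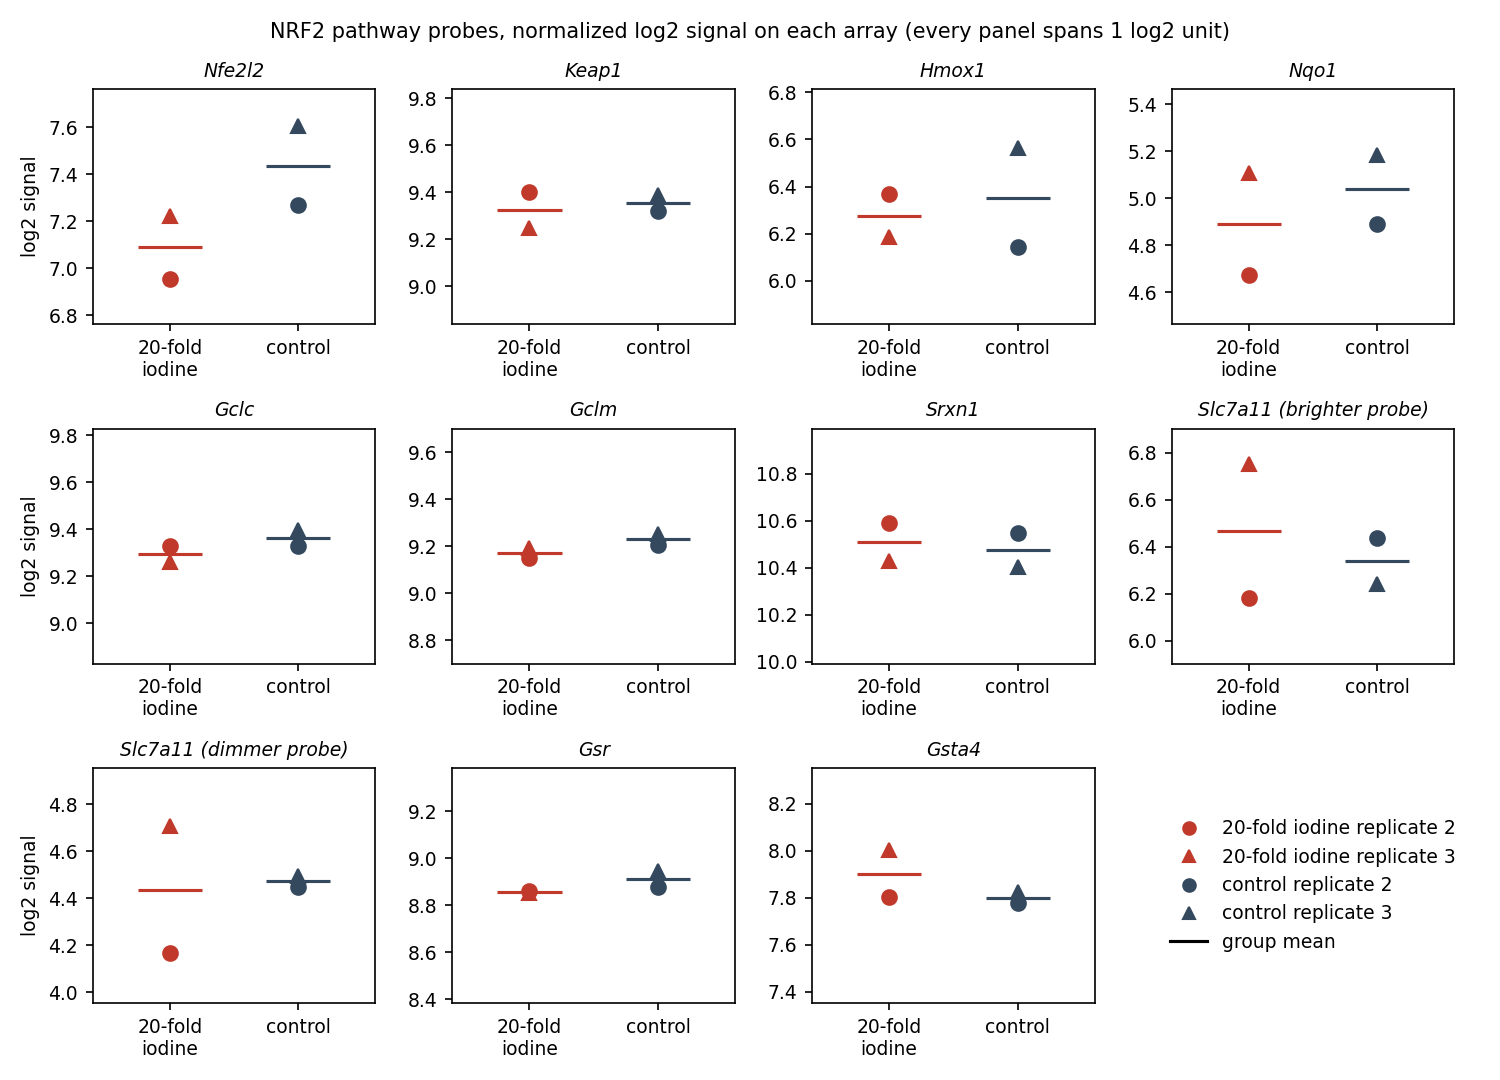
Normalized log2 signal (y axis) of the 11 probes of NRF2 pathway genes on each array of the 20-fold iodine group (red, left) and the control group (grey, right), with circles for replicate 2, triangles for replicate 3 and lines for the means of 2 arrays. Nfe2l2 was between 6.96 and 7.22 with 20-fold iodine and between 7.27 and 7.60 in control, while both Slc7a11 probes stood highest on 20-fold iodine replicate 3.

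Of 56605 probes, 37533 and 37751 were well above background with 20-fold iodine, against 37893 and 37921 in control, so both counts were slightly lower with 20-fold iodine. Before scaling, the 75th percentile of signal was lower too, at 149.7 and 144.3 with 20-fold iodine, against 158.8 and 154.2 in control. Pearson's r between arrays over 16793 genes (which are not independent replicates) was 0.994 to 0.996, with the highest between 20-fold iodine replicate 3 and control replicate 2. All 4 arrays shared 1 slide and 1 scan. The 20-fold iodine arrays were at positions 3 and 4 and the control arrays at positions 1 and 2, so position and group cannot be told apart. Of the defining markers of hippocampal neurons, 8 of 8 were well above background. Meningeal and choroid plexus markers were also present, in unequal amounts, and their values are given below.

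Nfe2l2, which encodes NRF2, had log2 signals of 6.96 and 7.22 with 20-fold iodine, against 7.27 and 7.60 in control. Both 20-fold iodine arrays were thus below both control arrays, and the nearest pair, 7.22 and 7.27, was closer than the 2 arrays of either group were to each other. The difference was -0.35 ± 0.16 (SE, n = 2 per group), a fold of 0.79 with a 95% confidence interval of 0.58 to 1.07 (limma adjusted p = 0.724, unadjusted 0.1005). Among all genes 7.07% had an absolute difference at least as large. Without control replicate 2 the difference was -0.51 and without 20-fold iodine replicate 3 it was -0.48, whereas without 20-fold iodine replicate 2 it was -0.21 and without control replicate 3 it was -0.18. The smallest unadjusted p among these 4 was 0.0396, without control replicate 2, where the adjusted p was 0.843. With an array left out, the lone array of its group takes its spread from the other group.

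Keap1, which encodes the inhibitor, had log2 signals of 9.40 and 9.25 with 20-fold iodine, against 9.32 and 9.39 in control. The control values lay between the 20-fold iodine values. The difference was -0.03 ± 0.09 (SE, n = 2 per group), with a 95% confidence interval of -0.27 to 0.22 (limma adjusted p = 0.956), and its sign turned to 0.05 without 20-fold iodine replicate 3 and to 0.0045 without control replicate 3.

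Hmox1 encodes heme oxygenase-1, which breaks heme into biliverdin, iron and carbon monoxide and is among the most inducible of NRF2 targets. Its log2 signals were 6.37 and 6.19 with 20-fold iodine, against 6.14 and 6.56 in control. The control arrays were the lowest and the highest of the 4, so the difference of -0.08 (95% confidence interval -0.55 to 0.40, limma adjusted p = 0.935) was smaller than the gap of 0.42 between the 2 controls. It turned to 0.13 without control replicate 3 and to 0.01 without 20-fold iodine replicate 3.

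Nqo1, the quinone reductase gene often used to read out NRF2 activity, had the dimmest of the probes that stand for a member. Its processed signals were 25.2 and 32.8 with 20-fold iodine, against 31.1 and 36.9 in control, where the lowest signal called well above background was 4.47 to 4.63 on the 4 arrays. In normalized log2 units these were 4.67 and 5.11 with 20-fold iodine, against 4.89 and 5.18 in control. The groups overlapped, and the difference of -0.15 had a 95% confidence interval of -0.68 to 0.38 (limma adjusted p = 0.876). It was 0.07 without 20-fold iodine replicate 2 and -0.0010 without control replicate 3.

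Glutathione synthesis starts with cystine, which the transporter xCT, encoded by Slc7a11, brings into the cell. The brighter Slc7a11 probe had log2 signals of 6.18 and 6.75 with 20-fold iodine, against 6.44 and 6.24 in control. The dimmer probe had 4.16 and 4.71 with 20-fold iodine, against 4.45 and 4.50 in control. On both probes the 20-fold iodine arrays were the lowest and the highest of the 4, with replicate 3 above replicate 2 by 0.57 on the brighter and 0.54 on the dimmer probe. Those gaps were larger than the differences between groups, which were 0.13 (95% confidence interval -0.48 to 0.73, limma adjusted p = 0.911 over genes) on the brighter probe and -0.04 (-0.58 to 0.51, adjusted p = 0.973 over all 38228 probes) on the dimmer. The brighter probe gave 0.41 without 20-fold iodine replicate 2 and -0.16 without 20-fold iodine replicate 3, so its sign rests on a single array.

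The same arrays differed in markers of tissue at the border of the hippocampus, and markers of other cell types varied too. Summed signal of microglia markers was 6383 and 5634 with 20-fold iodine, against 5477 and 6459 in control. For red blood cell markers it was 13231 and 13668, against 10413 and 14244 in control. For oligodendrocyte markers it was 27945 and 26932, against 27011 and 26810 in control. All 7 choroid plexus markers were well above background, and their summed signal was 8159 on replicate 2 and 41360 on replicate 3 of 20-fold iodine, against 24966 and 22110 in control. All 8 markers of meninges and fibroblasts were also measured, and their sum was 2352 and 3948 with 20-fold iodine, against 3347 and 4273 in control. The difference between groups was below 0 in 7 of the 7 choroid plexus and 7 of the 8 meningeal markers. Replicate 2 of 20-fold iodine was the lowest array in the choroid plexus and meningeal lists. On it Nfe2l2, Nqo1, Gclm and both Slc7a11 probes were lowest, while Keap1 and Srxn1 were highest. Choroid plexus markers were highest on 20-fold iodine replicate 3. On that array both Slc7a11 probes and Gsta4 were highest, Keap1, Gclc and Gsr were lowest, and Nfe2l2 was below both controls. The part of these tissues in the values of these genes was not tested, and fewer cells of a type cannot be told apart from less RNA per cell. Astrocyte markers, 8 of 8 measured, went both ways. The difference was above 0 in 3 (Gfap at 0.29, Aqp4 at 0.13 and Slc1a2 at 0.13). It was below 0 in 5 (Aldoc at -0.18, Aldh1l1 at -0.17, Slc1a3 at -0.15, Gja1 at -0.09 and S100b at -0.07). Another probe of Gfap stood at 0.55 and another of Gja1 at 0.42. Groups did not overlap in 3 markers with 20-fold iodine higher (17.9% of all genes) and in 4 with it lower (21.9% of all).

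**Figure D2:**
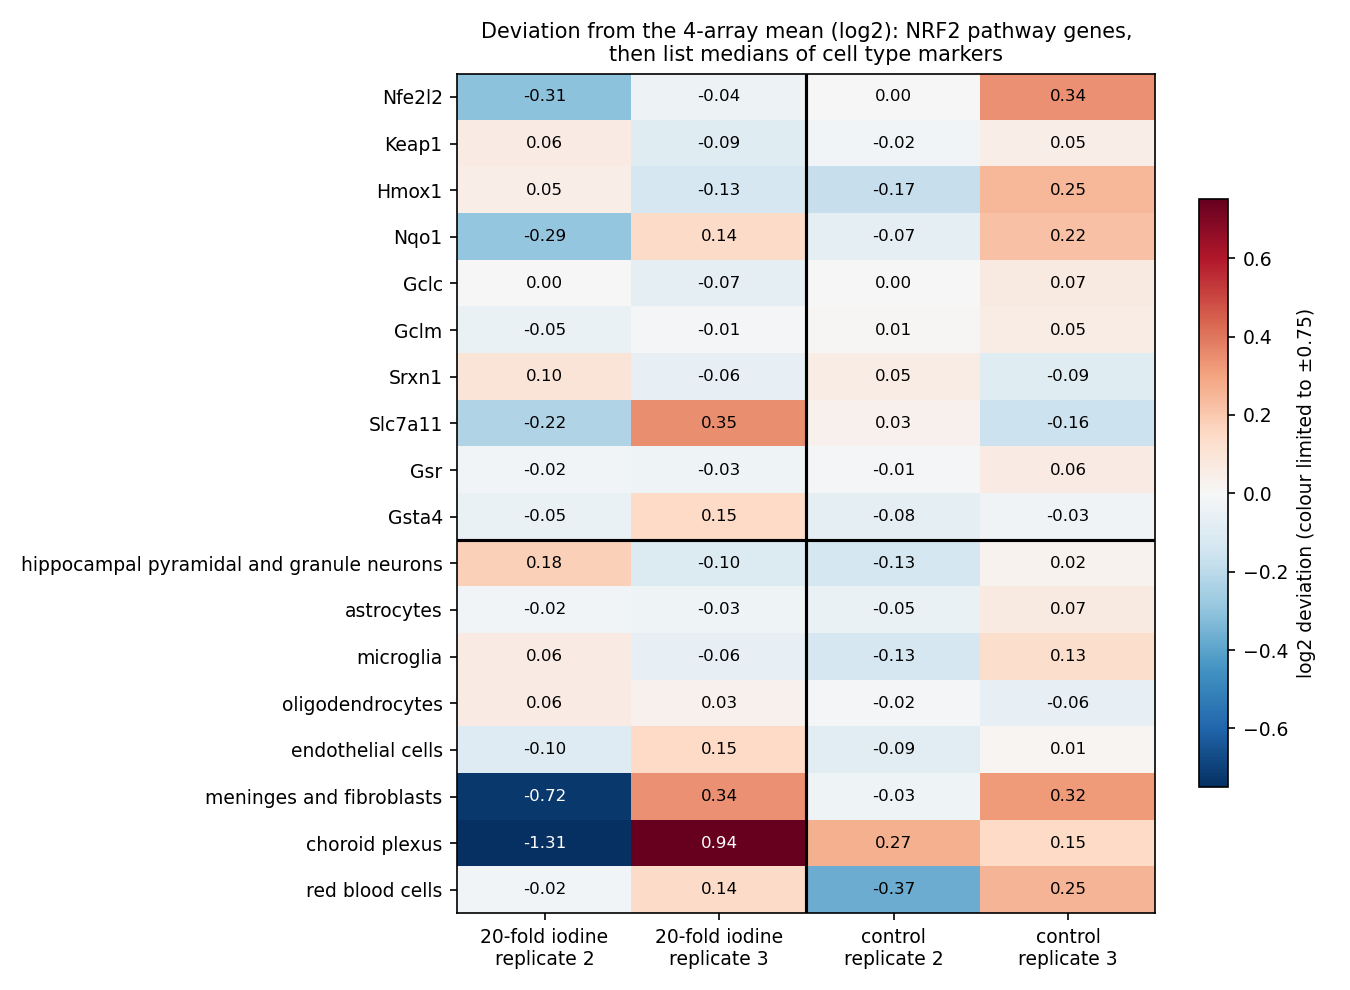
Deviation of each NRF2 pathway gene from its own mean over the 4 arrays (upper rows, log2) and the median deviation of 8 cell type marker lists (lower rows), with the 20-fold iodine arrays in the left columns and the control arrays in the right columns. Choroid plexus markers stood at -1.31 and 0.94 on the 2 arrays of 20-fold iodine, and Slc7a11 at -0.22 and 0.35 on the same arrays.

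Glutamate-cysteine ligase, the rate-limiting enzyme of glutathione synthesis, has a catalytic subunit encoded by Gclc and a modifier subunit encoded by Gclm. Gclc had log2 signals of 9.33 and 9.26 with 20-fold iodine, against 9.33 and 9.40 in control, and Gclm had 9.15 and 9.19 with 20-fold iodine, against 9.21 and 9.25 in control. In both genes the 20-fold iodine arrays were below the control arrays, although the nearest pair of Gclc is equal when rounded. The differences were -0.07 ± 0.08 for Gclc and -0.06 ± 0.07 for Gclm (SE, n = 2 per group), with 95% confidence intervals of -0.28 to 0.14 and -0.26 to 0.14 (limma adjusted p = 0.849 and 0.863).

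Gsr encodes glutathione reductase, which returns oxidised glutathione to its reduced form. Its log2 signals were 8.86 and 8.85 with 20-fold iodine, against 8.88 and 8.94 in control. The 2 arrays of 20-fold iodine lay close together and below both control arrays. The difference of -0.05 ± 0.07 (SE, n = 2 per group) did not pass (limma adjusted p = 0.881, 95% confidence interval -0.25 to 0.15). It was 0.01 with normexp background correction followed by quantile normalization.

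Gsta4 encodes an alpha-class glutathione transferase that conjugates 4-hydroxynonenal, a product of lipid peroxidation. Its log2 signals were 7.802 and 8.004 with 20-fold iodine, against 7.776 and 7.826 in control. Replicate 3 of 20-fold iodine was the highest array and the other 3 lay close together. The difference was 0.10 ± 0.10 (SE, n = 2 per group, limma adjusted p = 0.833, 95% confidence interval -0.17 to 0.37), and it was 0.00065 without that array.

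Srxn1 encodes sulfiredoxin, which repairs over-oxidised peroxiredoxins. Its log2 signals were 10.59 and 10.43 with 20-fold iodine, against 10.55 and 10.40 in control. In each group the 2 arrays spanned more (0.16 with 20-fold iodine, 0.14 in control) than the difference of 0.04 between the groups (95% confidence interval -0.24 to 0.31, limma adjusted p = 0.949). The sign turned to -0.04 without 20-fold iodine replicate 2 and without control replicate 3.

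With 2 arrays per group the precision of these comparisons differed by gene. The 95% confidence interval lay within a 1.5-fold change either way in 7 members and within 2-fold in all 10. A change beyond 1.5-fold was thus inside the interval for Nfe2l2, Nqo1 and Slc7a11 alone, while SEs ran from 0.07 for Gclm to 0.22 for Slc7a11, beside a median of 0.09 over all genes. In 7 of 10 members the gap between 2 arrays of 1 group was larger than the difference between the groups.

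**Figure D3:**
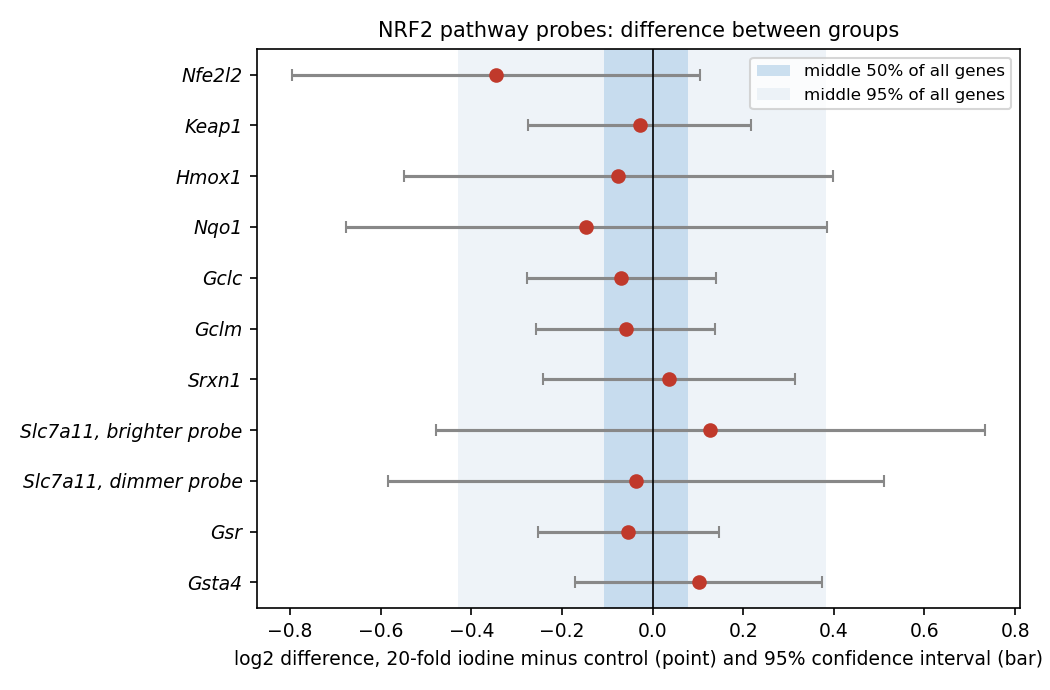
Log2 difference, 20-fold iodine minus control (points, x axis), with 95% confidence intervals (bars) for the 11 probes of NRF2 pathway genes, over the middle 50% and 95% of differences of all 16793 genes (dark and light bands). Every interval includes 0, and Nfe2l2 lies farthest from 0 at -0.35.

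Partners and regulators of NRF2 were measured with 19 of 20 listed genes. Both 20-fold iodine arrays were below both control arrays in 6 of 19 (21.9% of all genes) and above both in 5 (17.9% of all). The difference was above 0 in 9 and below 0 in 10, with a median of -0.0024 (all genes -0.01), 0 passed limma's adjusted p, and 2 of 19 (Nfe2l3 and Sesn1) had an unadjusted p under 0.05, against 7.38% of all genes. The small MAF genes, whose proteins pair with NRF2, stood at 0.02 (Mafg), -0.10 (Mafk) and -0.65 (Maff). Maff is dim and was picked out after its values were seen. Its log2 signals were 1.94 and 3.16 with 20-fold iodine, against 3.23 and 3.16 in control (SE 0.43, limma adjusted p = 0.767). It was well above background on 1 of 2 arrays of 20-fold iodine and on 2 of 2 of control. Bach1, a repressor of Hmox1 that competes for the same elements, had log2 signals of 6.35 and 6.35 with 20-fold iodine, against 6.50 and 6.62 in control. Its arrays did not overlap, which goes with a small p, since Bach1, Nfe2l3 and Sesn1 are the 3 genes of smallest p in this list. The difference of Bach1 was -0.21 ± 0.08 (SE, n = 2 per group, limma adjusted p = 0.680). It was -0.09 with normexp and -0.11 with normexp and quantile normalization. Nfe2l3, a related factor of the same family, had 5.79 and 5.77 with 20-fold iodine, against 5.35 and 5.52 in control, a difference of 0.35 ± 0.09 (limma adjusted p = 0.668), with its other probe at 0.43. Normexp gave Nfe2l3 0.18, and normexp with quantile normalization 0.14. Sesn1, a stress-induced sestrin, had a difference of -0.23 ± 0.08 (limma adjusted p = 0.668). Nfe2l1, a second factor that binds antioxidant response elements, stood at -0.03 and its other probe at 0.15. Cul3, the scaffold of the ligase that KEAP1 serves, stood at 0.10. Sqstm1, an autophagy receptor that binds KEAP1, stood at -0.13 on its brighter probe and at 0.42 on another, so its direction depends on the probe.

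Further genes of glutathione synthesis and conjugation were measured with 28 of 29 listed genes. Both 20-fold iodine arrays were below both control arrays in 7 of 28 (21.9% of all genes) and above both in 5 (17.9% of all). The difference was above 0 in 9 and below 0 in 19, with a median of -0.06 (all genes -0.01), 0 passed limma's adjusted p, and 2 of 28 (Gstt1 and Mgst3) had an unadjusted p under 0.05, against 7.38% of all genes. Gstt1, a theta-class glutathione transferase, had log2 signals of 8.23 and 8.59 with 20-fold iodine, against 8.84 and 8.87 in control. Its arrays did not overlap, which goes with its choice as 1 of the 3 genes of smallest p in this list. The difference was -0.45 ± 0.14 (SE, n = 2 per group, limma adjusted p = 0.668). It was -0.27 without 20-fold iodine replicate 2 and -0.30 with normexp and quantile normalization. Mgst3, a microsomal transferase, had -0.30 ± 0.11 (limma adjusted p = 0.677) and Gsta3, an alpha-class transferase, -0.17 ± 0.07 (limma adjusted p = 0.696). Mgst3 was -0.19 without control replicate 2. The other probe of Gsta3 stood at -0.04, and the gene was -0.11 as the mean of its probes, -0.07 with normexp and -0.09 with normexp and quantile normalization. Gss, glutathione synthetase, which completes the tripeptide, stood at 0.10 and its other probe at 0.35. Slc3a2, the heavy chain that partners xCT, stood at -0.03 and its other probe at 0.30. Gstm1, a mu-class transferase, stood at -0.14 and its other probe at 0.02. Glutathione transferases form families of similar sequence, and how far a probe binds transcripts of a relative was not tested. Without 20-fold iodine replicate 2 the median of this list was 0.0084.

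Other NRF2 targets were measured with 33 of 35 listed genes. The difference was above 0 in 10 and below 0 in 23, with a median of -0.06 (all genes -0.01). By limma, 0 passed the adjusted p, and 0 of 33 had an unadjusted p under 0.05, against 7.38% of all genes. The 3 with the smallest p were Prdx6, a peroxiredoxin with phospholipase activity (-0.17 ± 0.07, SE, n = 2 per group), Txnrd1, the cytosolic thioredoxin reductase (-0.15 ± 0.07), and Akr1b8, an aldo-keto reductase (-0.14 ± 0.07), with limma adjusted p of 0.705, 0.728 and 0.732. Prdx6 had another probe at -0.21. Txnrd1 had another probe at -0.02 and stood at -0.08 as the mean of its probes. Groups that do not overlap go with the choice of small p-values. In the whole list 11 of 33 genes had both 20-fold iodine arrays below both control arrays, against 21.9% of all genes, and 3 had both above, against 17.9% of all. Prdx1, a peroxiredoxin that SRXN1 repairs, stood at -0.07, with other probes at -0.14 and 0.0014. Me1, malic enzyme, a source of NADPH, stood at 0.02 and its other probe at 0.01. These 3 lists hold genes that share the arrays with the 10 members, so their medians are not separate evidence.

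**Figure D4:**
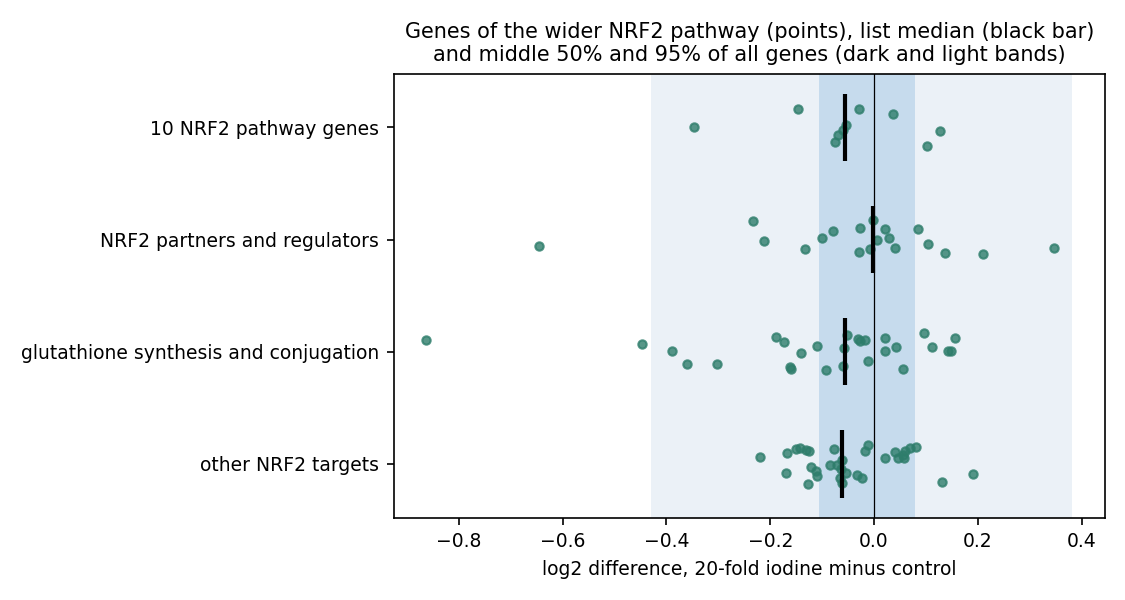
Log2 difference, 20-fold iodine minus control (x axis), of each measured gene in 4 lists (points), with the list median (black bar) and the middle 50% and 95% of all genes (dark and light bands). The list medians of -0.06, -0.0024, -0.06 and -0.06 (top to bottom) lie inside the dark band. The 2 leftmost points, Mgst2 at -0.86 and Maff at -0.65, were picked out after their values were seen. Both are dim genes well above background on only 1 of 2 arrays of 20-fold iodine. In control Mgst2 was well above background on 1 of 2 arrays and Maff on 2 of 2.

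Across 13 other settings, which changed the background correction, the scaling, the filter, the fit or left out 1 array, 0 members passed limma's adjusted p in any. The difference kept its sign in every setting for Nfe2l2 (-0.51 to -0.18), Gclc (-0.10 to -0.03), Gclm (-0.08 to -0.04) and Gsta4 (0.00065 to 0.20). It crossed 0 in at least 1 setting for the other 6. The filter, fit and mean-of-probes settings cannot move the difference of a gene with 1 probe, and Nfe2l2 stayed at -0.35 in each. For such a gene the sign could turn only with the background correction, the scaling or a left-out array.

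**Figure D5:**
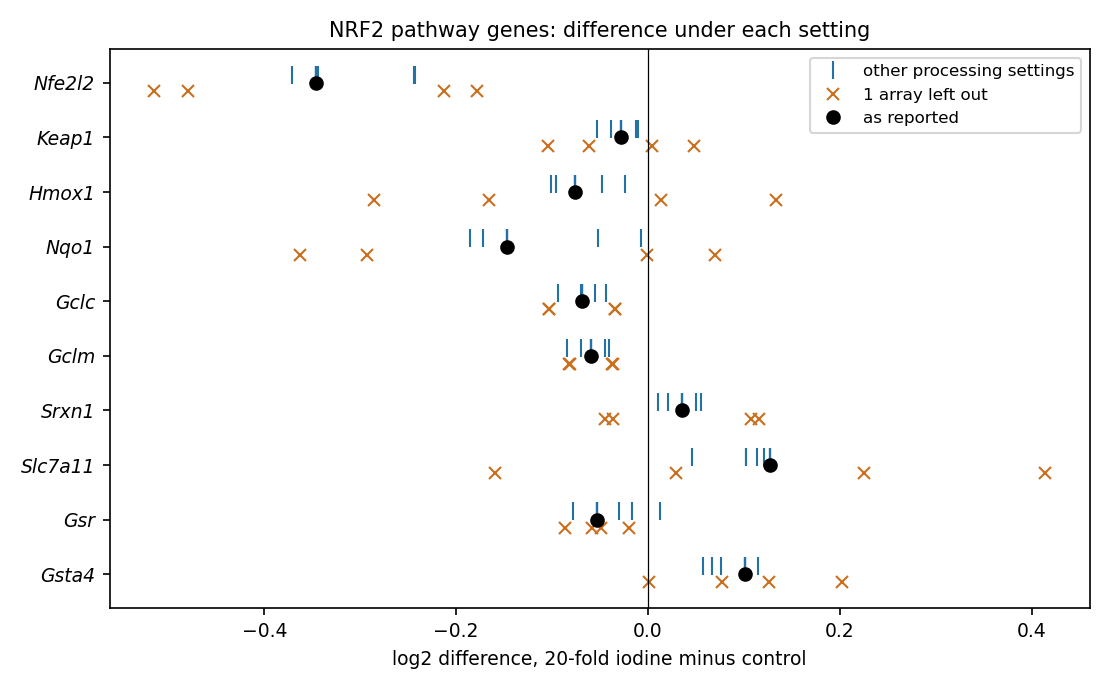
Log2 difference, 20-fold iodine minus control (x axis), of each NRF2 pathway gene as reported (black points), under 9 other processing settings (blue bars) and with 1 of the 4 arrays left out (orange crosses). Leaving out an array moved Slc7a11 between -0.16 and 0.41, and Nfe2l2 stayed below 0 throughout.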

How the data were processed

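Total RNA of dorsal hippocampus was amplified and labelled with Cy3, per the labels' protocols, and each sample had its own array. Scanner output came, per the file headers, from Agilent Feature Extraction 12.1.1.1. Processed signal is an intensity that the authors deposited with background subtracted within each array and no scaling between arrays; the median spot and background intensities served the normexp alternatives. Outlier spots were left out, spots of a probe averaged as log2 values, and the 75th percentile of non-control probes was subtracted per array (the mean percentile was added back). It was 149.7 and 144.3 for 20-fold iodine, and 158.8 and 154.2 for control. Kept were 38228 probes that 2 or more of 4 arrays called well above background. Probes were named by unversioned transcript accession through a RefSeq table of GRCm38.p6, which named 32994 of 56605. A gene's brightest kept probe stood for it. The fit was limma 3.58.1 (lmFit and eBayes, two-sided tests, R 4.3.3). Benjamini-Hochberg adjustment ran over 16793 genes, or 38228 probes where stated. Plots used matplotlib 3.10.9.

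The members and lists were chosen with earlier results of these data known, so lists are described by counts and medians, with no test. Other pathway genes were named as the 3 of smallest unadjusted p per list plus 12 set by symbol. With 4 arrays no gene was named for likeness to a member. The number of arrays limits the precision. Alternatives were normexp (offset 50), quantile normalization, both, median scaling, 2 other filters, trend with robust variances, the mean of probes, a replicate block and leaving out each array.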

Additional observations from a re-analysis of the deposited data

How the results depend on the processing

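No gene passed limma's adjusted p of 0.05 in any of 13 other settings (920 to 1512 genes had an unadjusted p under 0.05), and 0 member probes did. Over all probes, 25 passed with normexp and 53 with an intensity trend and robust variances, against 0 otherwise. The cause was not tested. The members' median was -0.020 with normexp, -0.026 with normexp and quantile normalization, and -0.085 to -0.010 with 1 array left out. With 1 array left out the medians ran from -0.042 to 0.035 for partners and regulators, from -0.12 to 0.0084 for glutathione genes and from -0.087 to -0.024 for other targets, which stood at -0.030 with normexp and quantile normalization. Scaling moved the median of all genes by less than 0.1 in each setting.

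Signs turned as follows with 1 array left out: Keap1 ran from -0.10 to 0.048, Hmox1 from -0.29 to 0.13, Nqo1 from -0.36 to 0.069, Srxn1 from -0.045 to 0.12 and Slc7a11 from -0.16 to 0.41. Among other named genes Mafg ran from -0.066 to 0.11, Nfe2l1 from -0.060 to 0.0046, Slc3a2 from -0.10 to 0.049 and Me1 from -0.056 to 0.098. Gsr was 0.013 with normexp and quantile normalization. Median scaling gave Mafg -0.0039 and Me1 -0.0039. The mean of probes gave Nfe2l1 0.063, Sqstm1 0.14 and Slc3a2 0.14, since their probes differ in sign. No cause of the other turns was tested.

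With the replicate number as a replicate block, 0 genes and 0 members passed, the members' median was -0.06, and Nfe2l2 had an unadjusted p of 0.0223 (adjusted p = 0.764). Deviations of same-numbered arrays had r = -0.02 over genes, which are not independent replicates, so this value cannot exclude a pairing. The labels tie a number to no animal or day, so whether same-numbered samples share more than a number is not known. Of the 10 members Nqo1 was nearest to background.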

Other observations

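Steps next to the members were picked out after their values were seen, so they do not show how such steps behave in general. Their differences ran from -0.13 for Pgd to 0.07 for Slc40a1, beside a median absolute difference of 0.09 over all genes. In Pgd and Tkt both 20-fold iodine arrays were below both control arrays, as in 21.9% of all genes. Heme breakdown and iron storage continue from HMOX1 through biliverdin reductases and ferritin, and the log2 differences of 20-fold iodine minus control were 0.04 for Blvra (-0.08 on its other probe), -0.01 for Blvrb, -0.07 for the ferritin heavy chain gene Fth1 and -0.09 for the light chain gene Ftl1. The iron exporter gene Slc40a1 stood at 0.07. NADPH for GSR and NQO1 comes largely from the pentose phosphate pathway, in which G6pdx stood at 0.06, Pgd at -0.13, Tkt at -0.05 and Taldo1 at -0.03. None of these 9 genes passed limma's adjusted p of 0.05 (unadjusted p of 0.226 or more).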
